A study of Homo sapiens with 3 samples.

Results

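The genes described here are 34 mitotic kinases, spindle checkpoint proteins and anaphase regulators, chosen by gene symbol from a table of 57736 gene rows. Each symbol matched 1 row, and all 34 passed the filter on low counts that left 14524 genes for testing. Total RNA was sequenced. The cells were TOV21G, an established ovarian clear cell carcinoma line in which ARID1A, a subunit of SWI/SNF chromatin remodellers, is mutated. There are 2 libraries of cells in which the histone deacetylase HDAC2 was knocked down with lentiviral short hairpins (HDAC2 knockdown; 1 library with shRNA 1 and 1 with shRNA 2) and 1 library of wild-type cells (WT). All 3 libraries come from the same ARID1A-mutated line. Whether WT received a control virus is unstated, so hairpin and transduction cannot be told apart. The knockdown libraries differ in hairpin, and neither a hairpin nor WT has a repeat library. P-values rest mostly on a prior drawn from all genes (18.9 degrees of freedom). A gene's own spread between the hairpin libraries adds 1 degree of freedom. The spread between the hairpin libraries may hold both hairpin and technical differences, and it does not measure the spread between repeat cultures.

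Entry into mitosis is driven by CDK1 bound to cyclin B, which WEE1 and PKMYT1 hold inactive and CDC25 phosphatases release. Polo and Aurora kinases then build the spindle, and the spindle assembly checkpoint blocks the anaphase-promoting complex (APC/C, a ubiquitin ligase) until every chromosome is attached. Once CDC20 activates the APC/C, securin and cyclin B are destroyed, separase cuts cohesin and the chromatids part. Most of these genes are transcribed periodically, with a peak in the G2 phase and mitosis. In a bulk library, fewer cells in those phases and less RNA per cell cannot be told apart.

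The libraries held 10138479 to 11398791 counts. HDAC2 itself stood at 33.4 and 51.6 CPM (the count normalised to the size of its library, with TMM scaling) with shRNA 1 and shRNA 2, against 105 CPM in WT, and CDKN1A, the gene of the cyclin-dependent kinase inhibitor p21, at 1121 and 759 CPM, against 326 CPM in WT. Among markers of clear cell carcinoma, PAX8 had 2871 and 1969 counts in the knockdown libraries and 2625 in WT, whereas NAPSA was almost absent (4 and 1 counts, against 1 in WT) and KRT7 was low (19 and 14 counts, against 20 in WT). The 4 leukocyte markers summed to 11 and 5 counts in the knockdown libraries and 10 in WT, and 3 endothelial markers to 10 and 4 counts, against 2 in WT. The 4 fibroblast markers summed to 59 and 107 counts, against 71 in WT, of which COL1A1 gave 54 and 89, against 67 in WT.

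Most of the mitotic genes fell in the knockdown cells. Of the 34, 20 were lower than WT and 0 were higher by the quasi-likelihood test of edgeR (adjusted p below 0.05, Benjamini-Hochberg over all genes), and 14 did not pass. Over all genes tested, 3.76% were called lower and 3.96% higher. With a trend in GC content removed 13 of the 34 were called lower, against 0.957% of all genes. With no filter on low counts, 0 genes of the whole table were called in either direction. In that fit 20 of the 34, and 2486 genes in all, had an unadjusted p below 0.05. The median log2 change was −0.83 over the 34 genes and 0.01 over all genes. Of the 34, 11 were called lower with a fall of at least 2-fold, as were 1.16% of all genes. Among called genes alone, these were 11 of the 20, against 168 of 546 over the whole table. Both knockdown libraries were below WT for 31 of the 34 genes, against 39.3% of all genes. These 31 include CDK1, which with shRNA 2 was at 99.99% of WT. Both libraries were above WT for 1, CDC16, against 39.9% of all genes. Together the 34 genes made up 2900 and 3510 CPM in the knockdown libraries, against 5321 CPM in WT. At an unadjusted p below 0.05, 26 were lower and 0 higher, against 1619 lower and 1801 higher among all 14524 genes tested.

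**Figure D1:**
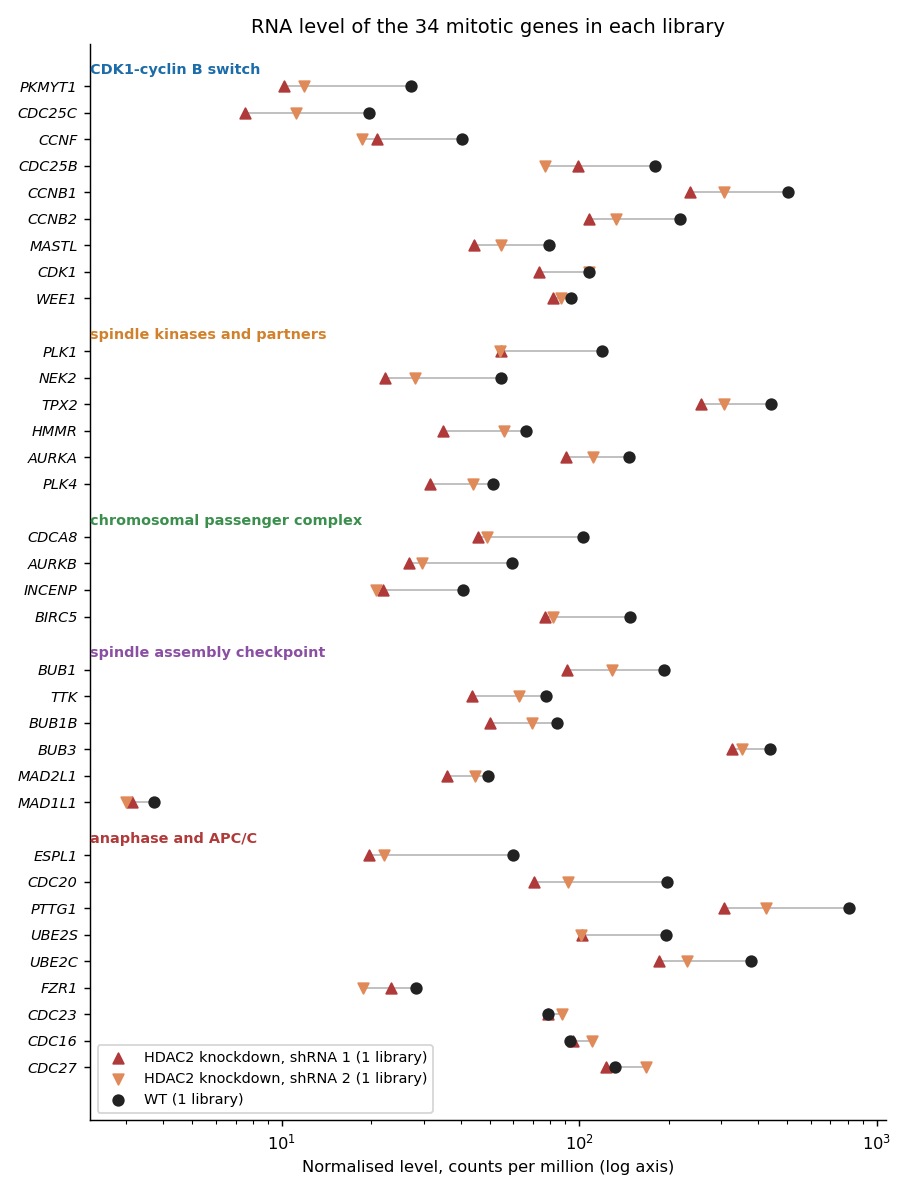
Normalised level (CPM, log axis) of each of the 34 genes in the shRNA 1 library, the shRNA 2 library and the WT library, grouped by role. Knockdown points lie left of the WT point for 31 genes, counting CDK1, whose shRNA 2 point all but coincides with WT at 108 CPM. The exceptions are the APC/C core subunit genes CDC16, CDC23 and CDC27.

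Promoter sequence from RefSeq (GRCh38.p14; the table itself gives no coordinates) was at hand for 26 of the 34 genes, as windows from 250 bases before to 50 bases after a transcript start. The cell cycle homology region (CHR) and the CCAAT box bound by NF-Y are promoter elements known from G2 and mitosis genes. The stretches below, from 130 bases before the start to 19 after it, are examples. They come from 4 genes that fell and 2 APC/C core genes that did not pass the test. Capitals mark TTTGAA (the CHR letters) and CCAAT, on either strand. The 4 genes that fell all hold both, and so they do not stand for the rest. Of the genes with a window, 8 of 16 called lower and 4 of 10 not passed hold both, counted over all windows of a gene. PLK4, which did not pass, holds them in different windows.
ESPL1 (chr12:53268169-53268318, plus strand): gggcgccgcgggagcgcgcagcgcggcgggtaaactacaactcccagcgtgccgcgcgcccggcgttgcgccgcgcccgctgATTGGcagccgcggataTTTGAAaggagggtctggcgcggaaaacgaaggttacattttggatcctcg
CDC20 (chr1:43358851-43359000, plus strand): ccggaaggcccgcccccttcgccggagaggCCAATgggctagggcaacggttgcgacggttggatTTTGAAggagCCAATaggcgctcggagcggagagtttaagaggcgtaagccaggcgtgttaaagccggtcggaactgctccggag
PLK1 (chr16:23678759-23678908, plus strand): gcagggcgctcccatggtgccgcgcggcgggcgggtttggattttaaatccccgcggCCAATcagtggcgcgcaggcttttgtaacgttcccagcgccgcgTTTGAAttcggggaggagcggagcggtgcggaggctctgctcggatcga
CCNB2 (chr15:59105016-59105165, plus strand): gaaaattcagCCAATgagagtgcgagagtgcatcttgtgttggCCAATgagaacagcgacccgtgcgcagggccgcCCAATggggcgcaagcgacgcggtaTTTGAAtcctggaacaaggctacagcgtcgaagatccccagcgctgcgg
CDC16 (chr13:114234767-114234916, plus strand): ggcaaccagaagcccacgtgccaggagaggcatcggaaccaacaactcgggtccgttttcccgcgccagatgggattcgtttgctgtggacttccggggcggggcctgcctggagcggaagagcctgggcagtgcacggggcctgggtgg
CDC27 (chr17:47189276-47189425, minus strand): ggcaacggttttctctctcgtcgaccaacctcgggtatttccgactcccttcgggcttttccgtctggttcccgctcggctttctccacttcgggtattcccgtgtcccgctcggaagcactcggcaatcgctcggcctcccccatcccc
Counted in bases from the transcript start, TTTGAA lies at −31 in ESPL1, at −29 in PLK1 and CCNB2 and at −65 in CDC20. CCAAT lies at −48 in ESPL1 (on the other strand), at −73 in PLK1, at −100 and −55 in CDC20 and at −120, −87 and −54 in CCNB2. The stretches of CDC16 and CDC27 hold neither, although a CCAAT lies further upstream in both windows, at −183 and −226. CDC23, the third core gene that did not pass, holds CCAAT at −98, −72 and −17 and no TTTGAA.

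Among the 26 genes with a window, TTTGAA on either strand was found in 15 (57.7%), against 18.2% of 27305 genes. CCAAT was found in 22 (84.6%), against 39.7%, and both in 12 (46.2%), against 8.37%. TTTNNCGC, letters of an E2F site, was found in 6 (23.1%), against 8.23%. A gene with several starts counted as holding a motif when any of its windows did, so both could come from different windows, as in PLK4. Both strands were searched, and matches of different motifs were allowed to overlap. Both kinds of gene held the motifs. TTTGAA was present in 9 of 16 genes called lower and in 6 of 10 not passed, and CCAAT was present in 15 of 16 called lower and in 7 of 10 not passed. A match is a description of letters, not a binding site.

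Of the 9 genes of the CDK1 and cyclin B switch, 7 fell. CCNB1, the gene of cyclin B1, stood at 237 and 306 CPM with shRNA 1 and shRNA 2, against 502 CPM in WT, a log2 change of −0.89 ± 0.17 (SE; adjusted p = 0.00364, edgeR's quasi-likelihood test). CCNB2, the gene of cyclin B2, stood at 108 and 133 CPM, against 218 CPM in WT (log2 change −0.86 ± 0.18, SE). The cyclin B genes thus averaged 54.1% ± 9.82 and 55.2% ± 8.21 of WT (SD, n = 2, 1 library per hairpin). With shRNA 1 and shRNA 2, CCNB1 stood at 47% and 61% of WT, and CCNB2 at 49% and 61%. For both, the knockdown libraries lay below the lone WT library, as for 39.3% of all genes. CCNF encodes cyclin F, a ubiquitin ligase subunit, and fell to 20.9 and 18.7 CPM, against 40.5 CPM in WT.

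Of the CDK1 regulators, CDC25B, CDC25C and PKMYT1 fell and WEE1 did not pass. CDC25B, a phosphatase that activates CDK1 at mitotic entry, had 99.4 and 76.9 CPM, against 179 CPM in WT (log2 change −1.02 ± 0.18, SE; adjusted p = 0.00149). CDC25C, its relative, had 7.50 and 11.1 CPM, against 19.7 CPM in WT (log2 change −1.08 ± 0.24, SE; adjusted p = 0.00986). PKMYT1, the membrane-bound kinase that restrains CDK1, had 10.2 and 11.8 CPM, against 27.3 CPM in WT (log2 change −1.31 ± 0.21, SE; adjusted p = 8.17e-04). PKMYT1 shares 23.1% of its 75-base sequences with the overlapping genes PAQR4 and KREMEN2 on the other strand. Since the use of strand in counting is not given, its level is uncertain, and the sum of the 3 genes changed by −0.94 on the log2 scale. WEE1, the nuclear kinase that restrains CDK1, did not pass, with 81.7 and 86.9 CPM, against 94.0 CPM in WT (log2 change −0.16 ± 0.17, SE).

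MASTL, the Greatwall kinase that keeps the phosphatase PP2A in check during mitosis, fell to 44.1 and 54.8 CPM, against 79.2 CPM in WT (log2 change −0.68 ± 0.18, SE; adjusted p = 0.0235). MASTL and CDC25C share 9.8% and 5.9% of their 75-base sequences with the neighbours YME1L1 and FAM53C, which had more counts in the knockdown libraries (4651 and 4640 against 2974 in WT for YME1L1, and 702 and 689 against 490 in WT for FAM53C). Summed with these neighbours, MASTL changed by 0.28 and CDC25C by 0.0325 on the log2 scale, and neither passed. DESeq2 did not call MASTL either (adjusted p = 0.154). CDK1 itself, the kinase of the switch, differed between the hairpins. It stood at 73.5 CPM with shRNA 1 and 108 CPM with shRNA 2, against 108 CPM in WT, so that the shRNA 2 library equalled WT to 3 digits and the shRNA 1 library lay below it. Its log2 change of −0.25 ± 0.20 (SE) did not pass (adjusted p = 0.478).

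Of the 6 spindle kinases and their partners, 3 fell. PLK1, the Polo kinase of mitotic entry and spindle assembly, had 54.4 and 54.3 CPM, against 120 CPM in WT (log2 change −1.14 ± 0.16, SE; adjusted p = 3.00e-04), and the hairpin libraries were almost equal. NEK2, a kinase that parts the centrosomes, had 22.3 and 28.0 CPM, against 54.5 CPM in WT (log2 change −1.11 ± 0.19, SE; adjusted p = 0.00123). TPX2, which brings Aurora A to spindle microtubules and activates it, had 257 and 307 CPM, against 440 CPM in WT (log2 change −0.64 ± 0.17, SE; adjusted p = 0.0230). Both knockdown libraries lay below the lone WT library for these 3 genes, as they did for 39.3% of all genes.

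The other 3 did not pass, though both knockdown libraries lay below WT. AURKA, the gene of Aurora A, had 90.6 and 112 CPM, against 147 CPM in WT (adjusted p = 0.0662). HMMR, a microtubule-associated protein of the spindle pole, had 34.9 and 55.7 CPM, against 66.1 CPM in WT (adjusted p = 0.122). PLK4, the kinase that licenses centriole duplication, had 31.6 and 43.9 CPM, against 51.4 CPM in WT (adjusted p = 0.178). For all 3, the shRNA 2 library lay nearer to WT than the shRNA 1 library.

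The chromosomal passenger complex, which corrects faulty attachments at the centromere and later directs cytokinesis, was the group in which every gene was called lower. AURKB, its kinase Aurora B, stood at 26.8 and 29.6 CPM, against 59.5 CPM in WT (log2 change −1.08 ± 0.18, SE; adjusted p = 9.54e-04). CDCA8, its subunit borealin, stood at 45.7 and 49.2 CPM, against 103 CPM in WT (log2 change −1.12 ± 0.17, SE; adjusted p = 3.63e-04). INCENP, the scaffold of the complex, stood at 22.0 and 20.7 CPM, against 40.7 CPM in WT (log2 change −0.93 ± 0.19, SE). The INCENP call was lost with the GC trend removed (adjusted p = 0.0843, edgeR's quasi-likelihood test) and by DESeq2's Wald test (adjusted p = 0.081). BIRC5 encodes survivin, the subunit that docks on chromatin, and stood at 76.5 and 81.9 CPM, against 148 CPM in WT (log2 change −0.90 ± 0.17, SE). Their knockdown means were close together, between 45.9% and 53.5% of WT, and the hairpin libraries differed by at most 0.14 on the log2 scale. In the switch, spindle kinase and checkpoint groups, too, every gene lay below WT in both knockdown libraries, although CDK1 with shRNA 2 was at 99.99% of WT.

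Of the 6 spindle assembly checkpoint genes, BUB1 alone passed. BUB1, a kinase that recruits the checkpoint to kinetochores, had 91.1 and 129 CPM, against 193 CPM in WT (log2 change −0.81 ± 0.19, SE; adjusted p = 0.0125). TTK, the kinase MPS1 at the top of the checkpoint, had 43.7 and 62.8 CPM, against 77.3 CPM in WT (adjusted p = 0.0947), and BUB1B, the gene of BUBR1, which binds and blocks CDC20, had 50.3 and 69.2 CPM, against 84.0 CPM in WT (adjusted p = 0.117). In both the shRNA 1 library was lower. BUB3, the adaptor of BUB1 and BUBR1, had 326 and 353 CPM, against 440 CPM in WT (log2 change −0.37 ± 0.16, SE; adjusted p = 0.168). MAD2L1, the gene of MAD2, had 36.0 and 44.7 CPM, against 49.5 CPM in WT (log2 change −0.29 ± 0.19, SE). MAD1L1, the gene of its partner MAD1, had 36 and 34 counts, against 37 in WT, too few to show a change of this size (log2 change −0.27 ± 0.42, SE). The group's median log2 change was −0.43, whereas the passenger complex genes ranged from −1.12 to −0.90. The groups also differ in GC content, with medians of 41.9% and 53.9%. With the GC trend removed, the median log2 change was −0.61 for the checkpoint genes and −0.85 for the passenger complex genes. It was then −0.83 for both the switch genes and the spindle kinase group. The difference between the groups was not tested.

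Of the 9 genes of anaphase and the APC/C, 5 fell. ESPL1, the gene of separase, which cleaves cohesin, fell most of all 34 genes, to 19.6 and 22.1 CPM, against 60.1 CPM in WT (log2 change −1.53 ± 0.18, SE; adjusted p = 6.38e-05). PTTG1, the gene of securin, which holds separase inactive, had 308 and 426 CPM, against 811 CPM in WT (log2 change −1.14 ± 0.18, SE; adjusted p = 5.31e-04). CDC20, the APC/C activator that the checkpoint restrains, had 70.3 and 91.8 CPM, against 198 CPM in WT (log2 change −1.29 ± 0.18, SE; adjusted p = 2.25e-04). Separase and its inhibitor securin thus averaged 34.7% ± 2.92 and 45.2% ± 10.3 of WT (SD, n = 2, 1 library per hairpin). Securin stood at 37.9% with shRNA 1 and 52.6% with shRNA 2.

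UBE2C and UBE2S, ubiquitin-conjugating enzymes that work with the APC/C, are the other 2 that fell. UBE2C, which starts ubiquitin chains, had 186 and 231 CPM, against 377 CPM in WT (log2 change −0.85 ± 0.17, SE; adjusted p = 0.00441). UBE2S, which extends them, had 102 and 101 CPM, against 197 CPM in WT (log2 change −0.95 ± 0.17, SE; adjusted p = 0.00147). UBE2S shares 12.4% of its 75-base sequences with its pseudogenes UBE2SP1 and UBE2SP2, and the sum of the 3 changed by −0.92. FZR1, the gene of CDH1, which activates the APC/C from late mitosis into G1, had 23.3 and 18.8 CPM, against 28.3 CPM in WT, and did not pass (log2 change −0.43 ± 0.21, SE; adjusted p = 0.225).

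None of the core APC/C subunits among the 34 genes passed the test. CDC16 had 95.2 and 110 CPM, against 93.4 CPM in WT (log2 change 0.14 ± 0.18, SE). CDC23 had 78.4 and 87.5 CPM, against 78.5 CPM in WT (log2 change 0.08 ± 0.17, SE). CDC27 had 123 and 168 CPM, against 132 CPM in WT (log2 change 0.14 ± 0.19, SE). These 3 subunits, built from repeats, were the only ones of the 34 with a fitted change above 0. The WT level lay between the knockdown libraries for CDC23 and CDC27. With 11 further core subunit genes from the companion list, the complex counted 14 tested genes, with a median log2 change of 0.00. Of these, 1, ANAPC15, fell and 0 rose. With the GC trend removed the median was −0.16 and 0 of the 14 were called, and DESeq2 gave ANAPC15 no adjusted p. ANAPC15, a small subunit that aids turnover of the checkpoint complex, had 10.6 and 11.9 CPM, against 20.4 CPM in WT, and shares 13.6% of its 75-base sequences with other genes. It is outside the rule for named genes and was picked with its values in view.

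**Figure D2:**
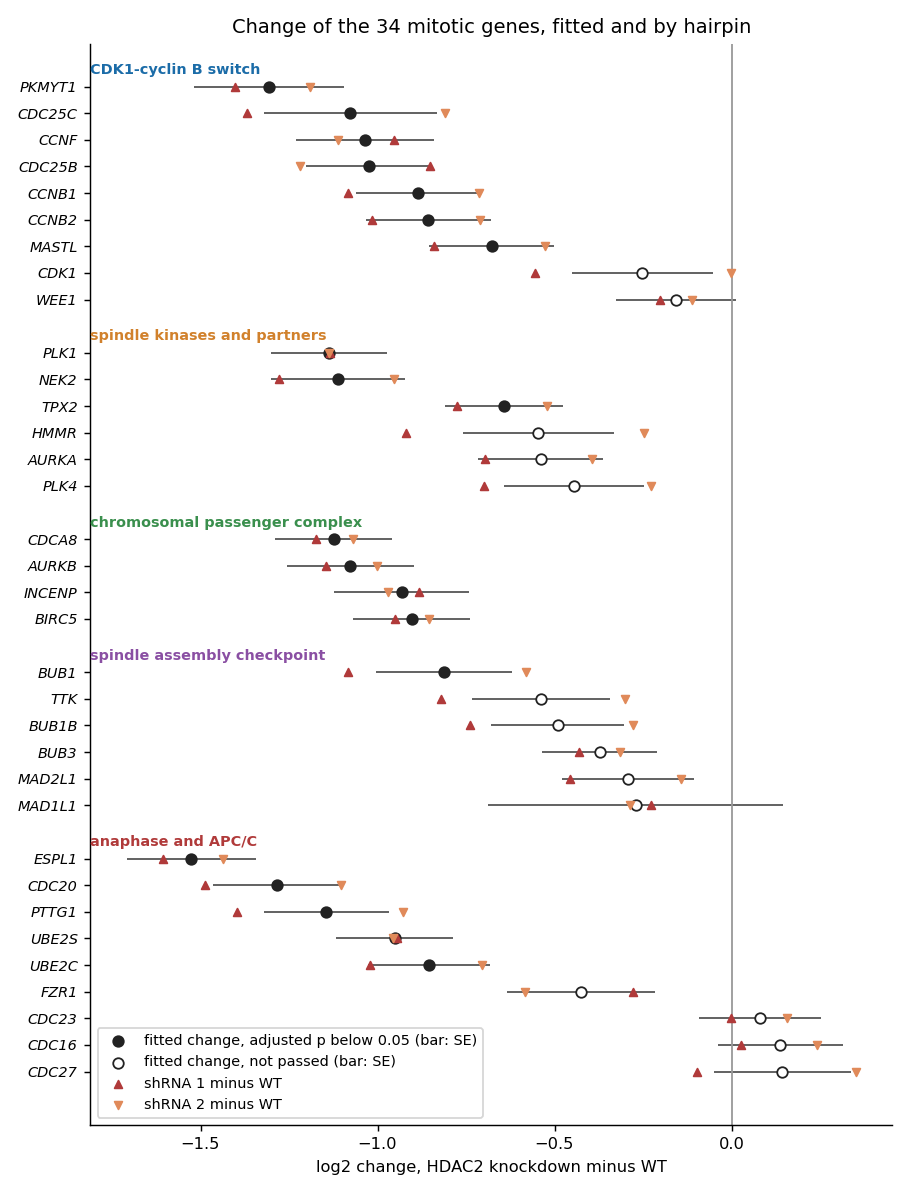
log2 change of each of the 34 genes, HDAC2 knockdown minus WT, by role. Circles are the fitted change with its SE (filled where the adjusted p is below 0.05, 20 genes), and triangles are the shRNA 1 and shRNA 2 libraries minus WT. ESPL1 lies lowest at −1.53, and CDC16, CDC23 and CDC27 lie between 0.08 and 0.14.

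A companion list of 46 other genes of mitotic entry, checkpoint and anaphase was set beside them. Of 45 tested (AURKC, with 3 counts in each library, was not), 8 fell and 4 rose, against 3.76% and 3.96% of all genes. The other 33 missed the threshold, and the median log2 change was −0.14. GTSE1, a microtubule-binding protein of G2, fell to 47.3 and 52.6 CPM, against 110 CPM in WT, and TACC3, a partner of Aurora A on the spindle, to 51.0 and 56.6 CPM, against 117 CPM in WT. HASPIN, the histone kinase that recruits the passenger complex, fell to 9.16 and 9.55 CPM, against 19.3 CPM in WT, and may share reads with ITGAE on the other strand. Its log2 change was −1.04, and −0.46 when summed with ITGAE, which did not pass (adjusted p = 0.125, edgeR's quasi-likelihood test), and its call was also lost with GC correction. CCNA2, the gene of cyclin A2, fell to 71.5 and 89.3 CPM, against 167 CPM in WT.

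The companion genes that rose were 2 kinases, a ubiquitin-conjugating enzyme and a phosphatase inhibitor. NEK7, a kinase also known from the inflammasome, rose to 46.3 and 42.8 CPM, against 21.2 CPM in WT (log2 change 1.07 ± 0.20, SE). PLK2, a stress-responsive Polo kinase, rose to 409 and 387 CPM, against 238 CPM in WT (log2 change 0.74 ± 0.17, SE), which sets it apart in direction from PLK1. UBE2D1, a general ubiquitin-conjugating enzyme, rose to 75.5 and 73.0 CPM, against 47.4 CPM in WT, and ARPP19, the MASTL substrate that inhibits PP2A, to 412 and 464 CPM, against 290 CPM in WT. Corrected for transcript GC content, none of these 4 rises passed, although PLK2 kept its size at 0.73 (adjusted p = 0.0532). The corrected log2 changes of NEK7, UBE2D1 and ARPP19 were 0.69, 0.21 and 0.25.

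**Figure D3:**
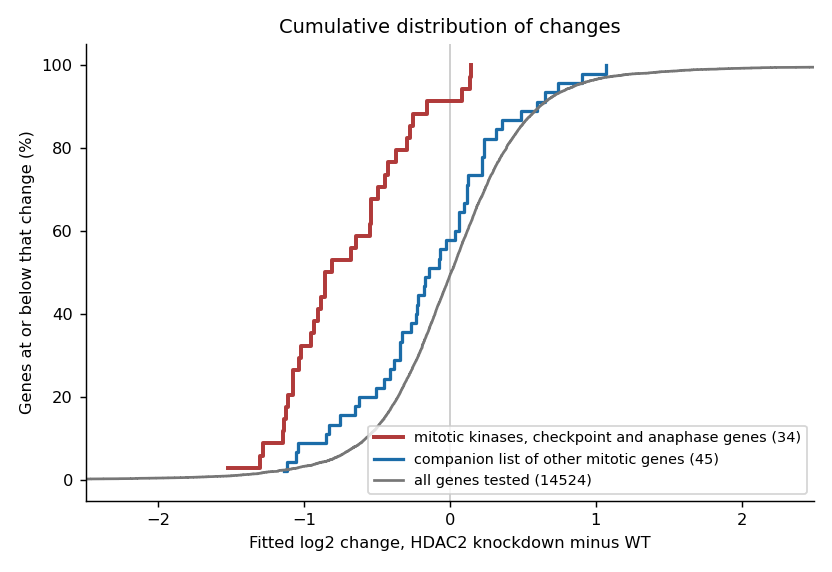
Cumulative distribution of fitted log2 changes (HDAC2 knockdown minus WT) for the 34 mitotic genes, the 45 tested genes of the companion list and all 14524 genes tested. The medians are −0.83, −0.14 and 0.01.

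The fall was larger with shRNA 1 than with shRNA 2 for most of the genes. The shRNA 1 library was the lower of the knockdown libraries for 27 of 34 genes, against 50.2% of all genes, and the median log2 change against WT was −0.90 with shRNA 1 and −0.64 with shRNA 2, with no test since each hairpin has 1 library. HDAC2 stood at 31.7% of WT with shRNA 1 and 48.9% with shRNA 2. The gap was widest for HMMR, at −0.67 on the log2 scale (shRNA 1 minus shRNA 2), then CDC25C and CDK1, both at −0.56. The 7 genes lower with shRNA 2 were CDC25B, FZR1, CCNF, INCENP, MAD1L1, UBE2S and PLK1, with gaps of 0.37 for CDC25B and down to 0.00 for PLK1.

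**Figure D4:**
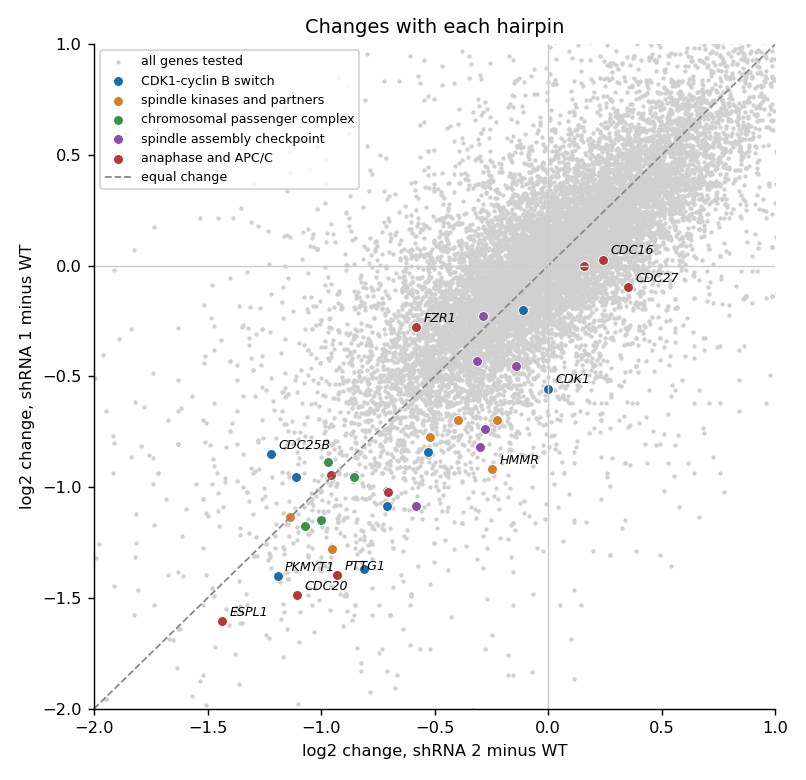
log2 change against WT in the shRNA 2 library (horizontal) and the shRNA 1 library (vertical) for all genes tested (grey) and the 34 mitotic genes (coloured by role), with a dashed line of equal change. Points below the line, 27 of the 34, were lower with shRNA 1 than with shRNA 2. Genes outside the axis range from −2 to 1 are not drawn.

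Changes varied with the GC content of the transcript, over all genes and among the mitotic genes. All genes with a longest transcript below 40% GC had a median log2 change of 0.34, and those from 55% to 60% GC one of −0.22. The 6 mitotic genes below 40% GC (CDK1, WEE1, PLK4, HMMR, MAD2L1 and CDC27) had a median of −0.27, whereas the 8 from 55% to 60% had a median of −1.06. The 3 at 60% or more (PKMYT1, FZR1 and MAD1L1) had a median of −0.43, against −0.29 for all genes in that range. Across the 34 genes, Pearson's r between the log2 change and GC content was −0.55, and across 14124 genes −0.33; genes share the same 3 libraries and are not independent. The gap between the hairpins went with GC content as well, with r = 0.70 across the 34 genes and 0.15 across all genes, and the 7 genes lower with shRNA 2 all had over 55% GC.

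With a smooth GC trend removed from each library, the median log2 change of the 34 genes was −0.79, and it was −0.58 below 40% GC, −0.85 from 55% to 60% and −0.13 at 60% or more. CDK1 then changed by −0.60, HMMR by −0.91 and PLK4 by −0.74, none passing, while CDC20 changed by −1.06 and ESPL1 by −1.31. In that fit 13 of the 34 genes were called lower, against 0.957% of all genes, and all 13 were among the 20. The calls of CCNF, CDC25B, CDC25C, INCENP, PKMYT1, TPX2 and UBE2C were lost, at adjusted p-values of 0.0532 (PKMYT1) to 0.0843 (INCENP) by edgeR's quasi-likelihood test. Of these 7, CDC25C, TPX2 and UBE2C changed by −1.08, −0.67 and −0.80 on the log2 scale, close to their uncorrected values. CCNF, CDC25B, INCENP and PKMYT1 changed by −0.82, −0.79, −0.69 and −0.98, less than without correction. The prior degrees of freedom were 7.2 there and 18.9 without correction. MAD1L1 moved to 0.01 and CDC23 and CDC27 to −0.07 and −0.22, and CDC16 to 0.07. Why the libraries differ in GC trend was not tested.

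**Figure D5:**
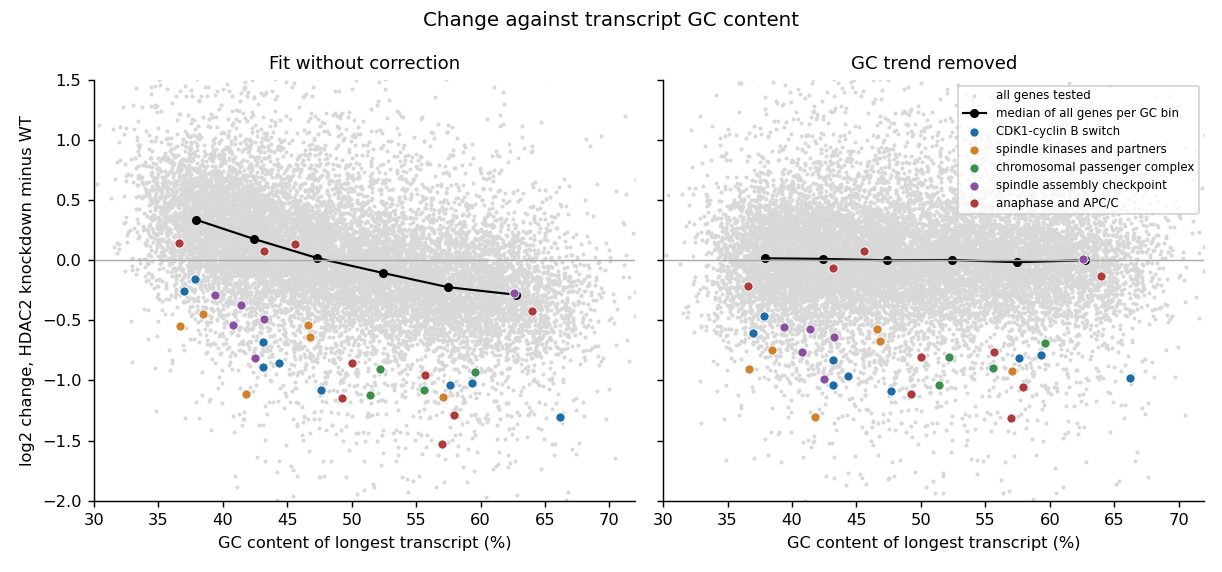
log2 change (HDAC2 knockdown minus WT) against the GC content of the longest transcript, without correction (left) and with the GC trend removed (right). Grey points are all genes, the black line joins their median per GC bin, and coloured points are the 34 mitotic genes. The black line runs downward on the left and is flat on the right, and most mitotic genes lie below it on both sides. On the right, CDC16 at 0.07 and MAD1L1 at 0.01 are the mitotic genes above 0.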

How the data were processed

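For each of 3 libraries the authors deposited whole-number estimated counts by Ensembl gene. RSEM 1.2.3, edgeR and hg19 appear, per the submitters' processing notes, with no role given for each. Use of strand in counting is not stated. Members and lists were chosen with earlier results of these data known. The text names all 34 members, HDAC2, CDKN1A, and the companion genes past the test with the 4 largest falls and rises, ranked by whichever hairpin changed less.

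All 14524 genes passing filterByExpr were fitted together (edgeR 4.0.16 quasi-likelihood test, R 4.3.3, TMM, Benjamini-Hochberg, adjusted p below 0.05), HDAC2 knockdown (n = 2) against WT (n = 1), on 1 residual degree of freedom. SEs come from the estimate and its F statistic. Single-library log2 changes use a prior count of 2. Simulated counts, drawn with a dispersion shared by all genes, were also fitted. Their outcome is not reported here, so they lend no support to the test. One marker of the cell line is not reported here. GENCODE 29 gave GC content (97.2% of genes tested; loess span 0.3) and the 75-base sequences shared between genes. Alternatives were 3 other scalings, 2 other filters, DESeq2 1.42.0, GC correction, summing genes that share at least 5% of sequences, and leaving out a library.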

Additional observations from a re-analysis of the deposited data

How the results depend on the processing

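Under the other scalings, the filter on a mean count of at least 50 and the summing of genes that share sequence, 18 to 20 members were lower and 0 higher. DESeq2's Wald test called 17 lower, all among the 20; INCENP and MASTL lost their calls, and CDC25C had no adjusted p. With the GC trend removed, 13 members were lower, and 139 genes in all were lower and 81 higher, against 546 and 575 in the fit without correction. The companion list then had 5 lower and 0 higher, and 4 lower and 2 higher by DESeq2, against 8 and 4. DESeq2 called 155 genes lower and 151 higher, and scaling by library size alone called 868 higher. With no filter on low counts, edgeR's quasi-likelihood test called 0 genes lower and 0 higher, hence 0 members and 0 companion genes, although 2486 genes and 20 members had an unadjusted p below 0.05 (306 genes passed DESeq2's test on the filtered table). Summed with YME1L1, MASTL changed by 0.28, and CDC25C with FAM53C by 0.0325, both on the log2 scale. Neither sum passed, and most of their counts are the neighbour's. The members' median log2 change lay between −0.90 (without shRNA 2) and −0.64 (without shRNA 1). Those 1-against-1 values have no test, and the lone WT library could not be left out. No paired analysis was possible because WT has 1 library, so the groups share fewer than 2 replicate numbers. Among the members, MAD1L1 had the fewest counts.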
